A study of Mus musculus with 12 samples.

Results

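The MYC and MAX network was followed through B cell division and plasma cell formation in 10 genes: Myc, Mycn, Max, Mxd1, Mxd3, Mxd4, Mxi1, Mnt, Mlx and Mga. They were taken by symbol from a deposited table of 21761 genes, and 9 of the 10 passed the filter on low counts. Mycn did not pass: it had 1 count in each of 4 libraries and 0 in the other 8. B220+ CD43- splenic B cells of naive C57/BL6J mice were given the division dye CFSE or CTV and put into uMT hosts, which lack B cells of their own. The strain field of the labels names B6.SJL-Ptprca Pepcb/BoyJ instead, and gives female sex and an age of 8 weeks. Every group received lipopolysaccharide (LPS), a bacterial activator of B cells, and was sorted on day 3, so there was no untreated group. The groups were cells that had divided 0 times (Div0), 1 time (Div1), 3 times (Div3) or 5 times (Div5), and cells at 8 or more divisions without the plasma cell surface protein CD138 (Div8neg) or with it (Div8pos). Each group had 2 libraries, 1 from host 196 and 1 from host 197, and all 6 groups of a host came from that animal. The p-values therefore speak only of the spread between these 2 hosts, and an exact test of 2 libraries against 2 cannot go below p = 0.333.

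MYC is a transcription factor that binds DNA only as a pair with MAX, mostly at the E-box, and drives ribosome production, metabolism and cell growth. MXD1, MXI1, MXD3, MXD4 and MNT compete with MYC for MAX and for the same sites, and repress by recruiting SIN3 and histone deacetylases. MLX pairs with MNT, with MXD1 and MXD4, and with the nutrient sensors MLXIP and MLXIPL. MGA pairs with MAX within a polycomb complex. In activated B cells, MYC is known to be induced early, to set how often a cell divides, and to be repressed by BLIMP1 during plasma cell differentiation.

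Myc had no entry among the promoters used here and its promoter was not scanned, whereas that of Mycn was. Of the 9 members with a promoter entry in RefSeq (build GRCm38.p6), 4 held the E-box CACGTG, which reads the same on both strands, in the 300 bases from 250 before to 50 after the start site. These are shown because they place the network's own binding letters at the genes for MAX, MLX and 2 antagonists. Each window has 60 bases, written 5′ to 3′ on the gene's strand, with the E-box in capitals. Of all 32851 promoter windows of this length, 7.15% held CACGTG. No binding was measured, so a match describes the letters only.
Mxd4 (chr5:34187897-34187956, minus strand, E-box 219 bases before the start): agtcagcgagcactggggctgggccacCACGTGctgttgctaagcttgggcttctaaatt
Mnt (chr11:74830774-74830833, plus strand, 123 before): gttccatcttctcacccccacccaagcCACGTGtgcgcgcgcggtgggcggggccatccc
Mlx (chr11:101087223-101087282, plus strand, 40 before): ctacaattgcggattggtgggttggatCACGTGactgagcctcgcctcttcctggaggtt
Max (chr12:76962219-76962278, minus strand, 3 before): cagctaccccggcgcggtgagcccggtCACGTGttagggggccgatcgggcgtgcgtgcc

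The libraries held 11541406 to 14961666 counts over named genes, and the ERCC spike-in RNAs took 113723 to 683173. Values are on 2 scales. The deposited mRNAs per cell rest on the spike-ins added to 40000 sorted cells. Counts per 1e6 gene counts (CPM) were scaled between libraries by edgeR's TMM factors (0.9456 to 1.021) and are relative to all genes of a library. Total mRNA per cell was 30440 ± 4351 in Div0 (mean ± SD, n = 2), 51290 ± 12080 in Div1, 48470 ± 7015 in Div3, 71400 ± 4980 in Div5, 100200 ± 4754 in Div8neg and 162800 ± 15560 in Div8pos. All genes of a library share its spike-in scaling, so the high total of Div1 in host 197 (59840, against 42750 in host 196) enters every per-cell value of that library. The 5 B cell markers summed to 5590 to 6145 CPM through Div5, 4028 to 4141 in Div8neg and 904.6 to 928.4 in Div8pos, while the 5 plasma cell markers went from 288.5 to 446.4 through Div5 up to 5070 to 5152 in Div8pos. The 5 T cell markers stayed at or below 2.31 CPM and the 3 NK cell markers at or below 0.855. The 4 stromal markers summed to 267.3 to 296.7 CPM from Div0 to Div3, 158.9 to 174.1 in Div8neg and 15.94 to 19.27 in Div8pos, and in Div0 nearly all of that was Pecam1 (267.1 and 272.6 CPM in the 2 libraries), which B cells also express. The 4 erythroid markers found summed to 3.02 to 17.04 CPM through Div8neg and to 0.616 and 1.92 in Div8pos. The 7 myeloid markers summed to 46.67 to 72.59 CPM in Div0, 151.8 to 191.4 in Div8neg and 17.51 to 20.87 in Div8pos. Most of the Div8neg level was Itgam (118.2 CPM, against 11.02 in Div0), while Lyz2 was at 3.62 and 9.25 CPM. The part of these markers in the results was not tested, and in bulk samples fewer cells of a type and less RNA per cell cannot be told apart.

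Myc mRNA per cell was lowest in undivided cells and highest in CD138+ cells. In hosts 196 and 197, Div0 held 6.20 and 8.62 Myc mRNAs per cell, Div1 9.32 and 16.1, Div3 8.34 and 12.2, Div5 12.8 and 11.7, Div8neg 17.5 and 18.6, and Div8pos 32.2 and 28.3. Both Div8pos libraries were above both Div8neg libraries, which were above all the others, whereas Div0 overlapped Div3, Div3 overlapped Div5 and Div5 overlapped Div1. By limma on log2(mRNAs per cell + 0.1), Myc was higher in Div8neg than in Div0 by 1.29 (SE 0.23, adjusted p = 3.45e-07) and in Div8pos than in Div0 by 2.03 (SE 0.23, adjusted p = 6.5e-14). Both comparisons use the same Div0 libraries. From Div8neg to Div8pos it rose by 0.74 (limma, adjusted p = 0.00363), and this call was lost without the filter on low values (limma adjusted p = 0.0504). The median over all genes was 0.49 in that step. The 0.1 added makes the changes of scarce genes smaller, and with 0.01 in its place the median was 0.55.

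The smaller steps in Myc per cell were less stable. From Div0 to Div1 the median log2 difference per cell over all genes was 0.63, or 0.71 with 0.01 added in place of 0.1. Relative to all genes, Myc was at log2 0.02 in this step (edgeR, adjusted p = 0.941). Per cell, Myc differed by 0.74 on the log2 scale (limma, adjusted p = 0.0059). This call was lost without Div0 of host 196 (log2 0.50, adjusted p = 0.141) or without Div1 of host 197 (log2 0.35, adjusted p = 0.211). From Div5 to Div8neg Myc rose by 0.55 (limma, adjusted p = 0.0427), and the call was lost when any of these 4 libraries was left out (limma adjusted p of 0.0937 to 0.231). Between Div1 and Div3 and between Div3 and Div5 no difference per cell passed (limma adjusted p = 1.0 and 0.298).

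**Figure D1:**
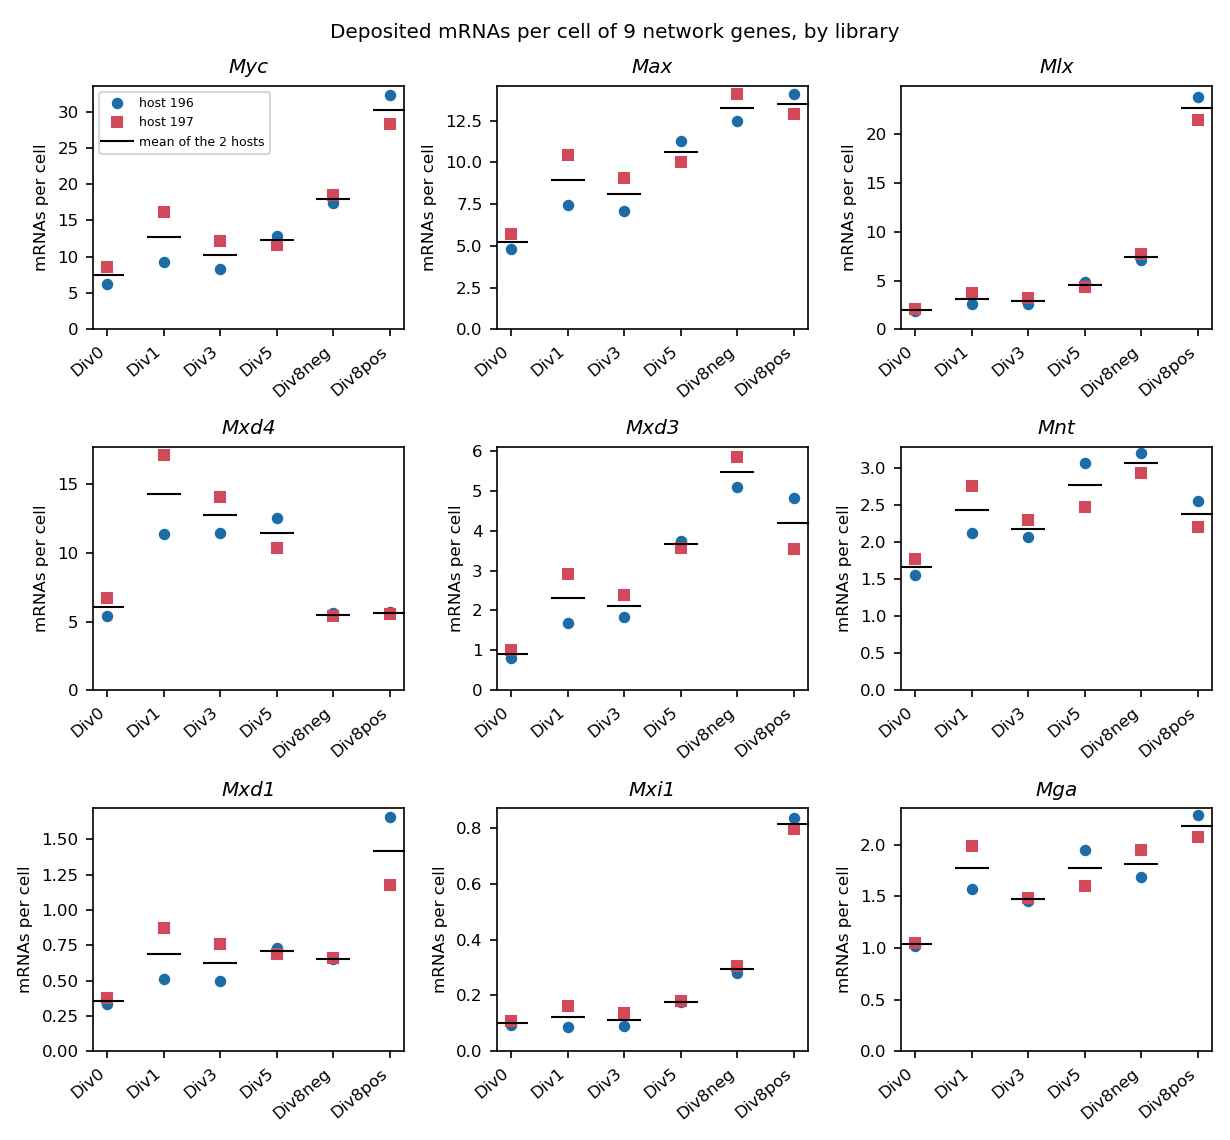
Deposited mRNAs per cell (y axes, each from 0) of the 9 members that passed the filter, by group (x axes). Circles are host 196, squares host 197 and dashes the mean of the 2 hosts. Myc and Mlx were highest in both Div8pos libraries, whereas Mxd4 was highest in the Div1, Div3 and Div5 libraries, which overlapped.

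As a share of all mRNA, by contrast, Myc had its highest means in Div0 and Div1, and both groups overlapped Div3. Its share was 242 ± 21.6 mRNAs per 1e6 mRNAs in Div0 (SD, n = 2), 244 ± 36.2 in Div1, 210 ± 25.7 in Div3, 171.5 ± 0.42 in Div5, 179.9 ± 0.703 in Div8neg and 186 ± 0.797 in Div8pos. In Div0 the shares of hosts 196 and 197 were 226.6 and 257.1, and in Div8pos they were 185.5 and 186.6. Shares of both Div0 and both Div1 libraries lay above those of every Div5, Div8neg and Div8pos library. The Div3 shares of hosts 196 and 197 were 191.7 and 228.1, the latter above Div0 and Div1 of host 196 (226.6 and 218.1). By edgeR's quasi-likelihood test, Myc was 1.31-fold lower in Div8neg than in Div0 relative to all genes (log2 -0.38, SE 0.09, adjusted p = 0.0017).

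Of the 5 consecutive steps, edgeR called Myc relative to all genes in 1. From Div3 to Div5 it was 1.21-fold lower (edgeR, log2 -0.27, adjusted p = 0.0425), a call lost without Div3 of host 197 (log2 -0.15, adjusted p = 0.33) and without either Div5 library (adjusted p = 0.148 and 0.151). It was also lost without either Div8neg library (edgeR adjusted p = 0.0562 for each) or either Div8pos library (edgeR adjusted p = 0.052 and 0.0521), which enter only through the shared estimate of the spread. In Div8pos against Div8neg the relative log2 difference in Myc was 0.20 (edgeR, SE 0.09, adjusted p = 0.0679). With host as a block this comparison passed (log2 0.20, edgeR adjusted p = 0.015), as did Div8pos against Div0 (log2 -0.18, edgeR adjusted p = 0.0218, against 0.0785 without the block). Both also passed without the filter (edgeR adjusted p = 0.00231 and 0.0124) and with only the 2 groups compared (edgeR adjusted p = 0.00823 and 0.0294). By DESeq2 only the former passed (adjusted p = 0.0331), and with library totals without TMM factors only the latter (edgeR adjusted p = 0.0159). The CD138+ cells held Myc at a mean of 198.8 CPM (197.7 in the lower library), against 174.9 and 171.3 in the 2 Div8neg libraries, with no overlap.

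The ratio of Myc mRNA to the summed mRNA of its 5 antagonists (Mxd1, Mxd3, Mxd4, Mxi1 and Mnt) moved from below to above 1 at the late divisions. In hosts 196 and 197 it was 0.756 and 0.866 in Div0, 0.59 and 0.676 in Div1, 0.522 and 0.621 in Div3, 0.632 and 0.675 in Div5, 1.18 and 1.23 in Div8neg, and 2.07 and 2.13 in Div8pos. The antagonists outnumbered Myc in all 8 libraries up to Div5, and Myc outnumbered them in all 4 libraries at 8 or more divisions. Scores over the members carry no test here, and the ratio is given with its spread over hosts. Within each host, Div8neg had 1.86 and 1.82 times the ratio of Div5, and Div8pos had 1.75 and 1.74 times that of Div8neg. The antagonist sum was 9.08 ± 1.23 mRNAs per cell in Div0, 19.8 ± 5.68 in Div1, 17.8 ± 2.58 in Div3, 18.8 ± 2.14 in Div5, 15 ± 0.229 in Div8neg and 14.4 ± 1.64 in Div8pos. As a share of all mRNA the antagonists went from 384 ± 20.2 per 1e6 mRNAs in Div1 to 88.6 ± 1.61 in Div8pos, while the share of Myc went from 244 to 186. By the means of the 2 hosts, the crossing from below to above 1 lay between Div5 and Div8neg also with Mga added to the antagonists. With Mnt left out the means crossed there too, but the Div0 mean was 0.9926. Div0 of host 197 was then already above 1, so under that setting the pattern did not hold in every library. With counts that were not divided by gene length, the Div0 ratio was 1.004.

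**Figure D2:**
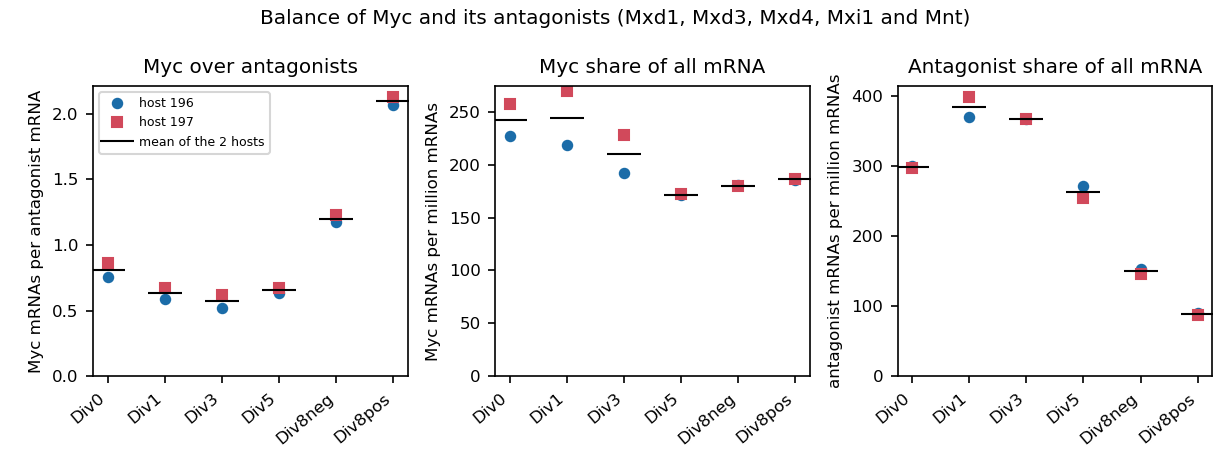
Myc mRNAs per antagonist mRNA, Myc mRNAs per 1e6 mRNAs and antagonist mRNAs per 1e6 mRNAs (y axes, from 0), by group (x axes). Circles are host 196, squares host 197 and dashes their mean. The ratio was below 1 through Div5 and reached a mean of 2.10 in Div8pos, where the antagonist share was 88.6 per 1e6.

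Max, the shared partner of MYC and its antagonists, was at overlapping levels per cell in CD138- and CD138+ cells, in which Myc differed. Max was at 4.82 and 5.69 mRNAs per cell in Div0 (hosts 196 and 197), 7.47 and 10.4 in Div1, 7.07 and 9.10 in Div3, 11.3 and 10.02 in Div5, 12.5 and 14.1 in Div8neg, and 14.1 and 12.9 in Div8pos. The Div8neg and Div8pos libraries overlapped, and the per-cell difference in Max between them was 0.02 on the log2 scale (limma, SE 0.22, adjusted p = 0.925). Max was 1.44-fold lower in Div8pos than in Div8neg relative to all genes (edgeR, log2 -0.52, SE 0.06, adjusted p = 4.31e-07). There were 1.40 ± 0.163 Myc mRNAs per Max mRNA in Div0, 1.15 ± 0.0186 in Div5, 1.36 ± 0.0591 in Div8neg and 2.24 ± 0.0608 in Div8pos. Max mRNA amounted to 0.321 ± 0.0201 of Myc plus antagonist mRNA in Div0, 0.402 ± 0.0227 in Div8neg and 0.303 ± 0.0104 in Div8pos.

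Mlx, the MAX-like partner of MNT, MXD1, MXD4 and the MLXIP family, had, as counted, the largest rise per cell of the 9 from Div0 to Div8pos (limma, log2 3.47, SE 0.22, adjusted p = 1.72e-28). It was at 1.85 and 2.05 mRNAs per cell in Div0, 2.60 and 3.71 in Div1, 2.58 and 3.18 in Div3, 4.83 and 4.33 in Div5, 7.13 and 7.76 in Div8neg, and 23.9 and 21.5 in Div8pos. Every step from Div3 onward separated both libraries of 1 group from both of the next. Div8pos was above Div8neg by 1.595 per cell on the log2 scale (limma, SE 0.22, adjusted p = 7.87e-10), and Mlx was 2.09-fold higher relative to all genes (edgeR, log2 1.06, SE 0.06, adjusted p = 9.93e-11). Mlx mRNA was 0.373 ± 0.0162 of Max mRNA in Div0, 0.561 ± 0.0154 in Div8neg and 1.68 ± 0.0165 in Div8pos. Mlx shares 385 exon bases (19.3% of its exons) with Psmc3ip on the opposite strand in the GENCODE annotation of GRCm38, and whether strand was used in counting is not given in the sources used here. Psmc3ip had 107 and 122 counts in Div0 and 671 and 552 in Div8pos, against 666 and 540 and 1473 and 1355 for Mlx. Subtracting them all leaves 802 and 803 Mlx counts in Div8pos. The per-cell values of Mlx and its ratio to Max were not recomputed in this way. The Div8pos ratio above 1 is therefore not shown without the Psmc3ip counts. With every Psmc3ip count subtracted, Mlx was still higher in Div8pos than in Div8neg (edgeR, log2 0.93, adjusted p = 3.03e-08). In Div8pos against Div0 its relative log2 difference went from 1.31 to 0.80 with the subtraction (edgeR, adjusted p = 1.06e-07). Mxi1 was at 0.79 in that comparison, so the first rank of Mlx is not shown without the Psmc3ip counts. With the same subtraction, the smaller relative rises of Mlx from Div5 to Div8neg (edgeR, log2 0.22, adjusted p = 0.00755) and from Div0 to Div8neg (edgeR, log2 0.25, adjusted p = 0.00218) turned to -0.03 and -0.13 (adjusted p = 0.791 and 0.162).

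Mga, which pairs with MAX and belongs to a polycomb repressor complex, fell relative to other genes as cells divided. Per cell it was at 1.02 and 1.05 mRNAs in Div0, 1.57 and 1.99 in Div1, 1.46 and 1.48 in Div3, 1.95 and 1.597 in Div5, 1.68 and 1.95 in Div8neg, and 2.29 and 2.07 in Div8pos. All divided groups were above Div0, and Div5 overlapped Div1 and Div8neg. Relative to all genes Mga was 1.84-fold lower in Div8neg than in Div0 (edgeR, log2 -0.88, SE 0.09, adjusted p = 4.56e-07), and 2.23-fold lower in Div8pos (edgeR, log2 -1.16, SE 0.10, adjusted p = 9.14e-09). Both comparisons share the Div0 libraries.

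Among the antagonists, Mxd4 was the most abundant through Div5 and then dropped. MXD4 is a MAX partner associated with withdrawal from the cell cycle. Mxd4 was at 5.43 and 6.69 mRNAs per cell in Div0 (hosts 196 and 197), 11.4 and 17.1 in Div1, 11.5 and 14.1 in Div3, 12.6 and 10.4 in Div5, 5.60 and 5.40 in Div8neg, and 5.73 and 5.56 in Div8pos. All 4 libraries at 8 or more divisions, with and without CD138, were below all Div1, Div3 and Div5 libraries and overlapped Div0. From Div5 to Div8neg Mxd4 fell by 1.04 on the log2 scale per cell (limma, SE 0.23, adjusted p = 0.000138), where the median over all genes was 0.41. Relative to all genes it was 1.40-fold higher in Div1 than in Div0 (edgeR, log2 0.48, adjusted p = 0.00017), 1.62-fold lower in Div5 than in Div3 (edgeR, log2 -0.70, adjusted p = 7.59e-06), 2.90-fold lower in Div8neg than in Div5 (edgeR, log2 -1.53, SE 0.08, adjusted p = 1.41e-09) and 1.43-fold lower in Div8pos than in Div8neg (edgeR, log2 -0.52, adjusted p = 0.000134). Mxd4 made up 72.0 ± 0.207% of the antagonist mRNA in Div1, 60.9 ± 1.37% in Div5 and 36.7 ± 1.55% in Div8neg. There was 0.879 ± 0.0873 Myc mRNA per Mxd4 mRNA in Div1 and 5.36 ± 0.373 in Div8pos.

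Mxd3, an antagonist known to be expressed in proliferating cells during S phase, rose with division and was as abundant as Mxd4 in Div8neg but not in Div8pos. Mxd3 was at 0.804 and 1.00 mRNAs per cell in Div0, 1.68 and 2.93 in Div1, 1.84 and 2.39 in Div3, 3.75 and 3.57 in Div5, 5.09 and 5.85 in Div8neg, and 4.83 and 3.55 in Div8pos. The Div8neg libraries were the highest, and Div8pos overlapped Div5. Per cell Mxd3 was higher in Div8neg than in Div0 by 2.48 on the log2 scale (limma, SE 0.23, adjusted p = 8.71e-18). Relative to all genes it was 1.90-fold higher there (edgeR, log2 0.92, SE 0.11, adjusted p = 2.87e-06), and 1.91-fold lower in Div8pos than in Div8neg (edgeR, log2 -0.93, SE 0.12, adjusted p = 2.54e-06). Its share of antagonist mRNA was 9.93 ± 0.189% in Div0, 36.5 ± 3.04% in Div8neg and 28.8 ± 3.01% in Div8pos. Mxd4 made up 36.7 ± 1.55% in Div8neg and 39.3 ± 3.61% in Div8pos. Mxd3 shares 105 exon bases (4.43% of its exons) with Prelid1 on the opposite strand, which had 2205 to 4843 counts per library against 147 to 382 for Mxd3, so a part of the Mxd3 counts cannot be assigned with certainty. Prelid1 was itself higher in Div8neg than in Div0 (edgeR, log2 0.83, adjusted p = 2.41e-09). It was also higher in Div8pos than in Div8neg (edgeR, log2 0.21, adjusted p = 0.00274), where Mxd3 was lower. No counts were subtracted from Mxd3, and the part of Prelid1 in its rise was not tested.

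Mnt, the broadly expressed antagonist that also pairs with MLX, fell relative to other genes while its level per cell rose from Div0 to Div8neg (limma, log2 0.85, adjusted p = 0.000296). It was at 1.55 and 1.77 mRNAs per cell in Div0, 2.12 and 2.75 in Div1, 2.06 and 2.29 in Div3, 3.07 and 2.47 in Div5, 3.198 and 2.94 in Div8neg, and 2.56 and 2.21 in Div8pos. Div0 was below all divided groups, and each other group overlapped its neighbours in the order of levels. Relative to all genes Mnt was 1.89-fold lower in Div8pos than in Div8neg (edgeR, log2 -0.92, SE 0.10, adjusted p = 3.6e-07), and 3.27-fold lower than in Div0 (edgeR, log2 -1.71, SE 0.09, adjusted p = 4.76e-11). There were 12.7 ± 0.153 Myc mRNAs per Mnt mRNA in Div8pos and 5.89 ± 0.612 in Div8neg.

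Mxd1 and Mxi1, both known as antagonists of differentiating cells, were scarce and rose in the CD138+ cells. Mxd1 was at 0.337 and 0.376 mRNAs per cell in Div0, 0.512 and 0.871 in Div1, 0.499 and 0.756 in Div3, 0.733 and 0.687 in Div5, 0.649 and 0.658 in Div8neg, and 1.66 and 1.18 in Div8pos. Mxi1 was at 0.0923 and 0.109 mRNAs per cell in Div0, 0.0855 and 0.161 in Div1, 0.0896 and 0.136 in Div3, 0.177 and 0.179 in Div5, 0.282 and 0.306 in Div8neg, and 0.835 and 0.798 in Div8pos. Both Div8pos libraries stood above all others for both genes. Against Div8neg, Mxi1 was higher per cell by 1.22 on the log2 scale (limma, SE 0.18, adjusted p = 8.97e-09) and 1.90-fold higher relative to all genes (edgeR, log2 0.92, SE 0.15, adjusted p = 6.04e-05). In the same comparison Mxd1 was higher per cell by 0.99 (limma, SE 0.22, adjusted p = 5.72e-05) and 1.47-fold higher relative to all genes (edgeR, log2 0.56, SE 0.14, adjusted p = 0.00244), the last lost without Div8pos of host 196 (log2 0.39, edgeR adjusted p = 0.053). Even so, Mxd1 and Mxi1 made up 9.73 ± 1.24% and 5.68 ± 0.461% of the antagonist mRNA in Div8pos.

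**Figure D3:**
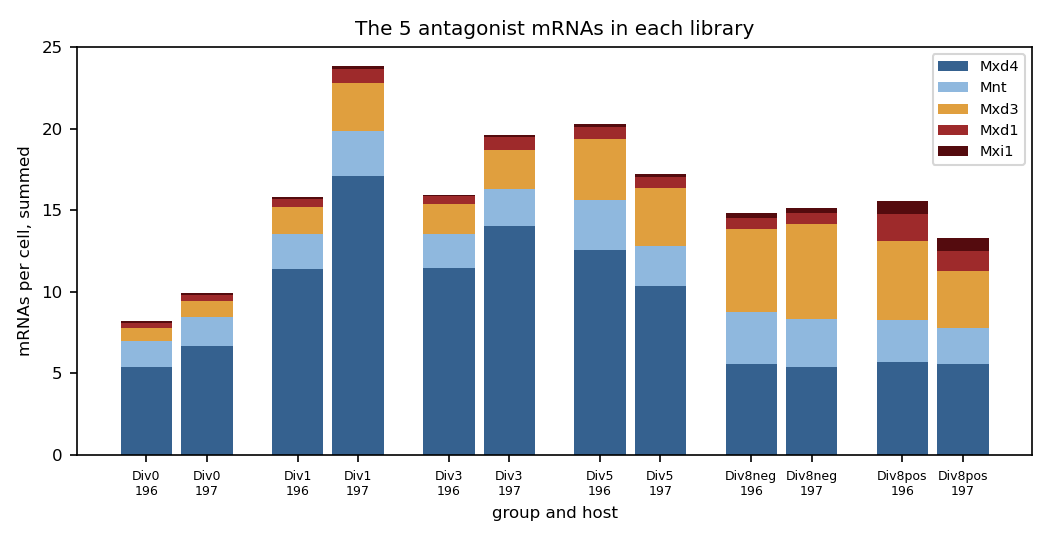
Summed mRNAs per cell (y axis, from 0) of the 5 antagonists in each library (x axis, group over host), stacked by gene. Mxd4 filled 72.0% of the stack in Div1 and 36.7% in Div8neg, where Mxd3 filled 36.5%.

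Read step by step relative to all genes, most calls in the network came at the late divisions. Calls over all genes followed the same course, so this timing says nothing particular about the network. By edgeR at an adjusted p under 0.05, 2 of the 9 members (Mxd3 and Mxd4) were higher in Div1 than in Div0, where 5.44% of all 12026 genes were higher and 3.91% lower. The Mxd3 call was lost without Div1 of host 197 (edgeR adjusted p = 0.0946). From Div1 to Div3 none of the 9 was called by edgeR or by DESeq2 (1.9% of all genes were higher and 1.51% lower by edgeR), and by edgeR only Myc had an unadjusted p under 0.05. From Div3 to Div5, 3 were lower (Myc, Mxd4 and Mga) and none higher, beside 12.4% of all genes lower and 14.2% higher. The Mga call was lost without Div3 of host 196 or Div5 of host 197 (edgeR adjusted p = 0.36 and 0.234), and without the latter library 1 member was called. With host as a block 7 were called. From Div5 to Div8neg, Mlx was higher and Max, Mxd1, Mxd4, Mnt and Mga lower, beside 26.9% of all genes higher and 26.6% lower. The Max call was lost without either Div5 library or Div8neg of host 196 (edgeR adjusted p of 0.0566 to 0.124), the Mnt call without Div5 of host 196 or Div8neg of host 197 (0.0742 and 0.0873), and the Mlx call by DESeq2 (adjusted p = 0.0666). From Div8neg to Div8pos, 3 were higher (Mlx, Mxi1 and Mxd1) and 5 lower (Max, Mxd3, Mxd4, Mnt and Mga), beside 36.7% of all genes higher and 35.4% lower. The Mga call was lost without either Div8pos library (edgeR adjusted p = 0.0956 and 0.0613) or Div8neg of host 197 (0.104). Against Div0, Div8neg had 2 higher and 6 lower (35.3% and 35.7% of all genes) and Div8pos 2 higher and 4 lower (40.2% and 42.2%). The median log2 difference of the 9 was -0.38 in Div8neg against Div0 and -0.25 in Div8pos against Div0, and over all genes it was -0.01 and -0.04.

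Per cell, 8 of the 9 members were higher at 8 or more divisions than in Div0, and Mxd4 was not called. By limma at an adjusted p under 0.05, 8 of the 9 were higher in Div1 than in Div0 (all but Mxi1), where 77% of all genes were higher and 0.133% lower. That count was 2 at the lowest when 1 library was left out, with Myc, Max, Mxd1, Mnt, Mlx and Mga each lost without Div1 of host 197. From Div1 to Div3 none was called by limma or by edgeR with spike-in library sizes (0.208% of all genes were higher and 0.308% lower by limma), and none had an unadjusted p under 0.05. From Div3 to Div5, Mxd3 and Mlx were higher (42.7% of all genes higher, 0.416% lower). Neither was called without Div3 or Div5 of host 196 (limma adjusted p of 0.0936 to 0.273), and Mlx alone was also lost without Div5 of host 197 (limma adjusted p = 0.0566). From Div5 to Div8neg, Myc, Mxd3, Mxi1 and Mlx were higher and Mxd4 lower (42.3% of all genes higher, 3.56% lower). Myc, Mxd3 and Mxi1 were each lost when any of these 4 libraries was left out (limma adjusted p of 0.0519 to 0.259), and Mlx without either library of host 197 (limma adjusted p = 0.117 for each), which left Mxd4 as the 1 call. From Div8neg to Div8pos, Myc, Mxd1, Mxi1 and Mlx were higher (52.1% of all genes higher, 16.3% lower). Against Div0, 8 members were higher in Div8neg (88.4% of all genes higher, 1.65% lower) and 8 in Div8pos (82.5% higher, 6.65% lower). Those counts are near the share of all genes and say nothing particular about the network. Mxd4 was at log2 -0.13 (SE 0.23, limma adjusted p = 0.584) and -0.09 (SE 0.23, limma adjusted p = 0.698) in these 2 comparisons, where the medians over all genes were 1.41 and 1.84. The summed mRNA of all members went from 24.7 ± 3.71 per cell in Div0 to 83.1 ± 7.10 in Div8pos, and from 812 ± 5.70 to 511 ± 5.20 per 1e6 mRNAs.

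**Figure D4:**
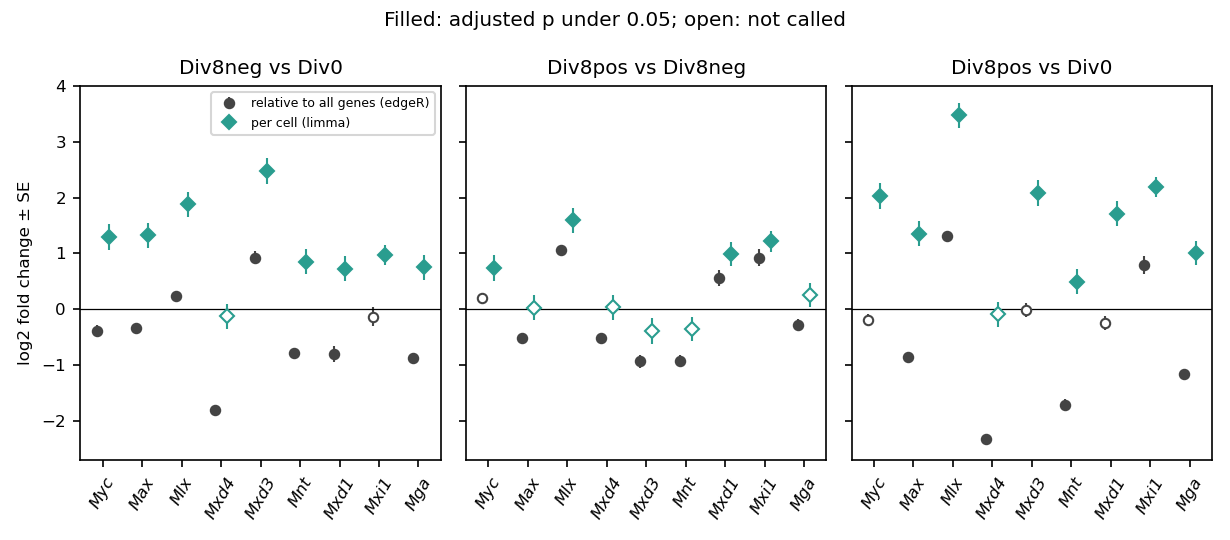
Log2 fold change ± SE (y axis) of the 9 members (x axis) in Div8neg against Div0, Div8pos against Div8neg and Div8pos against Div0. Circles are relative to all genes by edgeR and diamonds per cell by limma, filled where the adjusted p was under 0.05. Myc was at -0.38 relative to all genes and 1.29 per cell in Div8neg against Div0.

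A list of 35 genes known as direct MYC targets held mostly higher genes at each step from Div3 onward. By edgeR relative to all genes, 0 of the 35 were higher and 1 lower in Div1 against Div0 (5.44% of all genes higher, 3.91% lower). Per cell, 33 of them were higher and 0 lower in that step by limma, where 77% of all genes were higher. In Div3 against Div1, 0 were called relative to all genes (3 at an unadjusted p under 0.05 by edgeR). On this scale 25 were then higher and 1 lower in Div5 against Div3 (median log2 0.26), beside 14.2% of all genes higher and 12.4% lower. In Div8neg against Div5, 33 were higher and 1 lower (median 0.53), beside 26.9% and 26.6% of all genes. In Div8pos against Div8neg, 34 were higher and 0 lower (median 0.62), beside 36.7% and 35.4% of all genes. Over all genes these 3 medians were between -0.01 and 0.01. Per cell, limma called 33, 34 and 34 higher and 0 lower in these 3 steps, beside 42.7%, 42.3% and 52.1% of all genes higher. From Div5 to Div8neg the largest rises were in Bcat1 (3.77-fold, branched-chain amino acid metabolism), Slc7a5 (2.25-fold, a subunit of an amino acid transporter), Tfrc (1.94-fold, the transferrin receptor) and Srm (1.82-fold, polyamine synthesis). From Div8neg to Div8pos they were in Srm (3.22-fold), Slc7a5 (3.04-fold), Ccnd2 (2.84-fold, a D-type cyclin) and Odc1 (2.71-fold, polyamine synthesis). Tert, the telomerase gene, was the 1 target lower in Div8neg against Div5 (1.41-fold lower relative to all genes), and it was not called per cell (limma, log2 -0.01, adjusted p = 0.973).

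Of 9 genes known to be repressed by MYC, 3 were higher and 6 lower in Div8neg than in Div0 relative to all genes by edgeR, with a median log2 of -1.06, beside 35.3% of all genes higher and 35.7% lower. Per cell the same comparison had 6 higher and 0 lower by limma (median 0.57), beside 88.4% and 1.65% of all genes. Ndrg1 (3.34-fold lower, a stress-response gene), Btg1 (3.27-fold lower, antiproliferative), Ccng2 (2.32-fold lower) and Cdkn1b (2.27-fold lower, the inhibitor p27) were among those lower relative to all genes. Per cell the first 3 were not called (limma adjusted p = 0.871, 0.912 and 0.0503) and Cdkn1b was higher (limma, log2 0.48, adjusted p = 0.0389). The cyclin-dependent kinase inhibitor genes Cdkn1a (3.77-fold) and Cdkn2c (1.93-fold) were higher on both scales. The remaining gene counted as higher, Cdkn2b, had 1 and 2 counts in the Div0 libraries and 40 and 59 in Div8neg. It passed the filter through its levels at 8 or more divisions, so its call is no separate evidence and no fold is given. Btg1 was a further 13.2-fold lower in Div8pos than in Div8neg relative to all genes, and was also lower per cell (limma, log2 -3.07, adjusted p = 5.19e-24).

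Most genes on a list of regulators of MYC protein stability were higher in CD138+ cells. Of 12 listed, 10 were higher and 0 lower in Div8pos than in Div8neg relative to all genes by edgeR (median log2 0.81), beside 36.7% of all genes higher and 35.4% lower. Per cell 11 were higher and 0 lower by limma (median 1.32), beside 52.1% of all genes higher and 16.3% lower. Pim2 (3.73-fold) and Pim1 (2.65-fold) encode kinases that stabilise MYC, Skp2 (2.24-fold) encodes a ubiquitin ligase subunit that acts on it, and Usp28 (1.91-fold) a deubiquitinase that protects it. In Div8neg against Div0, 6 were higher and 2 lower relative to all genes, beside 35.3% and 35.7% of all genes. The latter were Gsk3b (1.24-fold lower), the kinase that marks MYC for degradation, and Huwe1 (1.18-fold lower), a ubiquitin ligase. Per cell all 12 were higher by limma, Gsk3b by 1.27 and Huwe1 by 1.41 on the log2 scale, where 88.4% of all genes were higher. MYC protein was not measured.

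**Figure D5:**
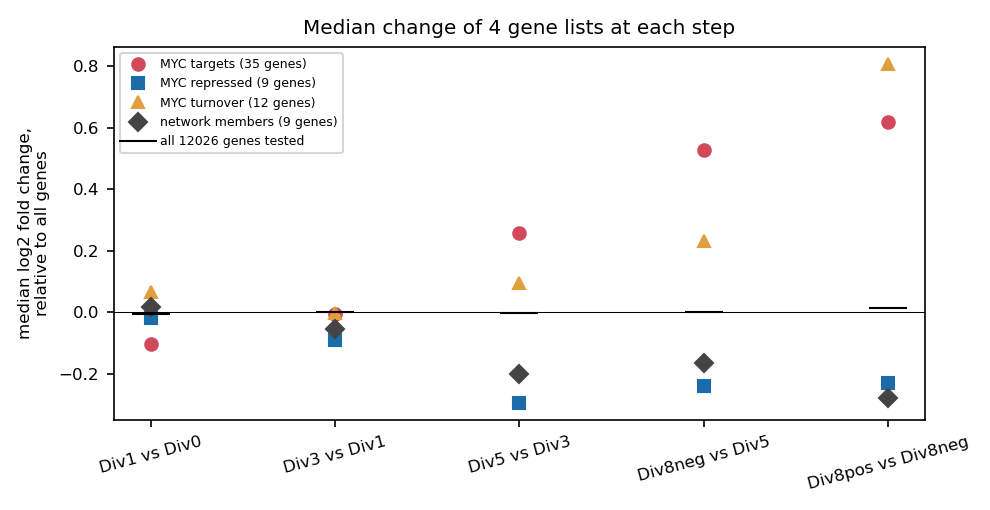
Median log2 fold change relative to all genes (y axis) at each step (x axis) of the MYC targets, the MYC-repressed genes, the genes of MYC turnover and the network members, with the median of all 12026 genes as a dash. The targets were at 0.26, 0.53 and 0.62 in the last 3 steps.

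The corepressors and cofactors were split in direction relative to all genes, in shares near those of all genes, and per cell none of them was lower. Of 12 SIN3 and histone deacetylase genes, 5 were higher and 6 lower in Div8pos than in Div8neg by edgeR (median log2 -0.04), with Sap30 2.04-fold higher and Hdac1 1.52-fold and Sin3a 1.38-fold lower. All genes stood at 36.7% higher and 35.4% lower. Of 14 MYC cofactor genes 5 were higher and 5 lower in the same comparison (median 0.05), with the ATPase genes Ruvbl1 1.64-fold and Ruvbl2 1.36-fold higher and the scaffold gene Trrap 1.51-fold lower. Per cell, limma called 6 corepressor and 9 cofactor genes higher and 0 lower (52.1% of all genes higher, 16.3% lower), and Hdac1, Sin3a and Trrap were not called (adjusted p = 0.822, 0.756 and 0.858). Of 7 genes of the polycomb complex that holds MGA, 3 were higher and 2 lower in Div8neg than in Div0 relative to all genes (median 0.13), with Tfdp1, a partner of E2F proteins, 2.79-fold higher and Ring1 1.51-fold lower, beside 35.3% and 35.7% of all genes. Per cell all 7 were higher by limma, beside 88.4% of all genes. Ring1 was higher by 1.05 on the log2 scale, where the median over all genes was 1.41.

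Most other E-box factors were lower in CD138+ cells relative to all genes, and per cell 2 of them were. Of 7 tested, 5 were lower and 1 higher in Div8pos than in Div8neg by edgeR (median log2 -0.81), beside 35.4% of all genes lower and 36.7% higher. Per cell 2 were higher and 2 lower by limma (median -0.27), beside 52.1% and 16.3% of all genes. Bhlhe40 was 14.6-fold and Bhlhe41 3.59-fold lower relative to all genes and both were lower per cell (limma, log2 -3.22 and -1.29), both encoding repressors of the same helix-loop-helix class. Usf1 and Usf2, encoding ubiquitous E-box activators, were 1.79-fold and 1.76-fold lower relative to all genes but not called per cell (limma adjusted p = 0.247 and 0.288), and Tfap4, itself a MYC target, was 1.35-fold higher. Mlxip, whose product is a partner of MLX, turned direction with the scale in Div8neg against Div0. It was 2.00-fold lower relative to all genes (edgeR) and higher per cell by 0.67 on the log2 scale (limma, adjusted p = 0.00386). Mycl, the third MYC family gene, had 2 and 3 counts in the Div0 libraries and 12 and 14 in Div8neg. It passed the filter through the later groups, so it is given no fold and no test result for this difference. Mlxipl did not pass the filter on low counts.

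The genes whose log2 CPM ran most like that of a member over the 12 libraries were taken from 8778 genes with a mean of at least 10 CPM. The libraries of a host share an animal and those of a group a sort gate, so these r values are descriptions. For Myc they were Ezr (r = 0.928), Paf1 (0.883), Tmem106c (0.88), Gnl1 (0.88) and BC052040 (0.879). For Mxd4 they were Metap1d (r = 0.997), Mdfic (0.996), Pld3 (0.994), Pik3r4 (0.994) and Lrsam1 (0.994). For Mxd3 they were 2700081O15Rik (r = 0.976), Psrc1 (0.975), Cep89 (0.967), Atxn10 (0.964) and Odf2 (0.96), of which Psrc1 encodes a spindle protein.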

How the data were processed

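Per the labels' protocols, stranded mRNA libraries were made from 40000 sorted cells with ERCC spike-ins added before extraction, amplified for 11 PCR cycles and read as 50 bp pairs. The deposited counts are whole reads over exons of UCSC KnownGenes per the readme deposited with the files, and the submitters' processing notes name Picard, R 3.2.2 and the mm9 build. The aligner, the counter and its strand setting: not given in the sources used here. Deposited FPKM values are per kilobase and per 1e6 reads of a library total, and the deposited mRNAs per cell are the authors' FPKM times a scaling (0.1387 to 0.769 by library) that matched all spike-in molecules added over all spike-in FPKM. The 90 genes without a symbol (0.0498 to 0.0943% of counts) were left out. In R 4.3.3, edgeR 4.0.16 (TMM, filterByExpr, quasi-likelihood F test) was fitted to the counts and limma 3.58.1 (trend) to log2(mRNAs per cell + 0.1), each with 6 group means over 12 libraries and 12026 genes, with Benjamini-Hochberg adjustment over all genes in each of 7 comparisons. "Higher", "lower", "rose" and "fell" are used of adjusted p under 0.05. The alternatives were DESeq2 1.42.0, library totals without TMM, no filter, host as a block, only the groups compared, spike-in library sizes, pseudocounts of 0.01 and 1, and leaving out each library. Libraries of a host come from the same animal per the labels, so the hosts pair the groups, and the deviations of same-host libraries correlated at 0.02 to 0.299 over 15 pairs of groups. The fits were tested on simulated data. Overlapping exons were read from GENCODE M21, by gene name only. The named genes of each other list were up to 4 called genes with the largest change in each direction. For Myc, Mxd3 and Mxd4 the 5 genes of highest Pearson r were named. Members and lists were chosen with earlier results of these data known. Bisulfite libraries named in the design text were not analysed here.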

Additional observations from a re-analysis of the deposited data

How the results depend on the processing

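With 2 libraries per group a small difference has little replication behind it, Mycn with at most 1 count in a library could not be tested, and no ratio has a test. Relative to all genes, the number of members called was 1 without a filter for Div3 against Div1 (0 with it), and for Div5 against Div3 it was 5 without a filter and 7 with host as a block (3 otherwise). Per cell it was 0 without a filter for Div5 against Div3 (2 with it) and 2 for Div8neg against Div5 (5 with it). The replicate block also brought Mnt in Div1 against Div0 (edgeR adjusted p = 0.0325) below the threshold, and changed no call per cell. Leaving out 1 library gave, relative to all genes, 1 to 2 members for Div1 against Div0, 0 for Div3 against Div1, 1 to 4 for Div5 against Div3, 4 to 6 for Div8neg against Div5, 6 to 9 for Div8pos against Div8neg, 8 for Div8neg against Div0 and 6 to 7 for Div8pos against Div0. Per cell, in the same order of comparisons, it gave 2 to 8, 0, 0 to 4, 1 to 5, 4, 8 and 7 to 8.

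The ratio of Myc to antagonists with Mga added was 0.7279 in Div0, 0.5974 in Div5, 1.072 in Div8neg and 1.823 in Div8pos. With Mnt left out it was 0.9926 in Div0, 0.7229 in Div1, 0.6517 in Div3, 0.7664 in Div5, 1.512 in Div8neg and 2.514 in Div8pos. With counts not divided by length it was 1.004, 0.8898, 0.8045, 0.8617, 1.376 and 2.171 in the same order. With 1 host alone it ranged from 0.7555 to 0.8664, 0.5899 to 0.6762, 0.5224 to 0.6211, 0.6321 to 0.6753, 1.178 to 1.226 and 2.066 to 2.132. As counts per 1e6 gene counts without TMM factors, the Myc share was 165.1 in Div5, 176.0 in Div8neg and 189.7 in Div8pos. With 1 host alone, its share of all mRNA ranged from 226.6 to 257.1, 218.1 to 269.4, 191.7 to 228.1, 171.2 to 171.8, 179.4 to 180.4 and 185.5 to 186.6. DESeq2 turned Mxd3 in Div8pos against Div0 to 0.01991 (not called), and subtracting Psmc3ip counts, an alternative chosen after seeing the data, turned Mlx to -0.02928 in Div8neg against Div5 and to -0.1346 in Div8neg against Div0. No called difference of a member changed sign when a library was left out. Among differences that were not called, these took both signs. On the relative scale, in Div1 against Div0 Myc ranged from -0.1364 to 0.1535 and Mga from -0.06358 to 0.1467, in Div3 against Div1 Mxd1 from -0.1968 to 0.1083, Mxd3 from -0.1459 to 0.1514, Mxi1 from -0.198 to 0.2135 and Mnt from -0.1518 to 0.00969, in Div5 against Div3 Mxi1 from -0.002022 to 0.2919, and in Div8pos against Div0 Mxd3 from -0.1531 to 0.116. Per cell, Mxi1 ranged from -0.1133 to 0.3796 in Div1 against Div0. Between Div3 and Div1 per cell, Myc ranged from -0.6712 to 0.1119, Max from -0.3753 to 0.1018, Mxd1 from -0.4386 to 0.2272, Mxd3 from -0.462 to 0.3017, Mxd4 from -0.4291 to 0.1534, Mxi1 from -0.3044 to 0.1885, Mnt from -0.3249 to 0.03401 and Mlx from -0.3645 to 0.1365. Also per cell, Mxd1 ranged from -0.08033 to 0.4336 in Div5 against Div3, Mnt from -0.00281 to 0.3003 and Mga from -0.1027 to 0.1711 in Div8neg against Div5, Max from -0.06328 to 0.113 in Div8pos against Div8neg, and Mxd4 from -0.2783 to 0.01925 in Div8neg and from -0.2419 to 0.05569 in Div8pos against Div0.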
